A study of Mus musculus with 8 samples.

Results

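The 38 genes described here encode core autophagy factors and parts of the lysosome: 18 autophagy factors, 19 lysosomal enzymes, membrane proteins and proton pump subunits, and Tfeb, a transcription factor of lysosomal genes. The rule that picks them is a list of symbols and uses no measured value, although the list was drawn up with earlier results of these data known, and all 38 were among the 11854 named genes of the table. Autophagy wraps cytoplasm and worn organelles in a double membrane, the autophagosome, which then fuses with the lysosome. The lysosome is kept acidic by a proton-pumping ATPase and digests the cargo with hydrolases. In haematopoietic stem cells (HSCs), which sit in the marrow and sustain all blood lineages, autophagy is known to clear active mitochondria and to help maintain quiescence.

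The data are polyadenylated RNA of HSCs sorted from bone marrow of 4 wild type mice and 4 mice labelled Nupr1-/-, all of the C57BL/6 strain, each mouse giving its own library. Nupr1 encodes a chromatin-binding protein made under stress, and the title of the series places it in HSC quiescence and p53 signalling. Age, sex, the gates of the sort and the deleted part of Nupr1 are not given in the sources used here. A single comparison, between the genotypes, follows from the design, and here it asks how transcripts of autophagy and the lysosome differed between them.

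Libraries held 2296101 to 4769401 reads, recovered from the deposited values, and 11018 to 11701 genes with a read. Nupr1 itself was 285.5, 134.0, 245.3 and 318.2 normalised reads across wild type libraries 1 to 4, against 179.4, 173.3, 200.6 and 118.5 in the 4 labelled Nupr1-/- in the same order (limma adjusted p = 0.433). It did not separate the groups, so each difference is between libraries as labelled. On the first principal component (25.6% of the variance) wild type library 2 lay far from the other 7, so the calls and signs that change without it are given below. Of 14 HSC markers all 14 were read, with summed levels of 9750 to 12740 normalised reads in wild type and 8501 to 11161 in libraries labelled Nupr1-/-, and 1 of them (Mllt3) passed the test, lower. Of 14 monocyte and macrophage markers, cells rich in lysosomes, 6 were among the genes analysed, 5 of these were tested and 0 passed. Their sums were 1721 to 3215 in wild type and 1486 to 2660 in libraries labelled Nupr1-/-, most of it Lyz2. Csf1r and Adgre1 were not analysed here. Of 12 megakaryocyte and platelet markers, 10 were analysed and 4 rose (Pf4, Gp9, Itga2b and Vwf), with sums of 957 to 1310 in wild type and 2130 to 2626 in libraries labelled Nupr1-/-. Of 12 erythroid markers 7 were analysed, 5 were tested and 1 (Klf1) rose, with sums of 2638 to 4877 and 4289 to 6269. Of 10 B cell markers 3 were analysed, 2 were tested and 0 passed, with sums of 395 to 1970 and 329 to 595. Of 14 neutrophil markers 2 were analysed, 1 was tested and 0 passed, with sums of 993 to 2920 and 856 to 1447. Among T and NK cell markers and dendritic cell markers 0 passed. The part of these cell types in the results below was not tested, and in bulk RNA fewer cells of a type and less RNA per cell cannot be told apart.

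Of the 38 genes, 2 fell in libraries labelled Nupr1-/- and 0 rose. The 2 were Atp6ap2, an accessory subunit of the proton pump, and Lamp2, a major glycoprotein of the lysosomal membrane. The test was limma on log2(normalised reads + 1), two-sided, and a gene passed at a Benjamini-Hochberg adjusted p under 0.05 over the 10989 genes with at least 10 normalised reads in at least 4 libraries, a filter all 38 genes passed. A log2 difference below is the value in libraries labelled Nupr1-/- minus that in wild type. The 2 calls are 5.26% of the 38 genes, beside 3.8% of all genes tested (1.68% higher and 2.12% lower). At an unadjusted p under 0.05, 3 were higher (Npc1, Atg4b and Gabarap) and 3 lower (Atp6ap2, Lamp2 and Atg5), together 15.8% of the 38 against 19.7% of all genes. The groups did not overlap for 5 of the 38 genes, 2 higher and 3 lower, which is 13.2% against 11.7% of all genes (5.78% higher and 5.91% lower). These shares lie near or below the background, so these counts show nothing particular to the 38 genes as a set. The median log2 difference was 0.14 over the 38 genes and 0.03 over all genes tested, and 22 of the 38 lay above 0. With each library's trend in GC content and transcript length removed, described further down, the median of the 38 was 9.21e-05 and 20 lay above 0. Without wild type library 2 the sign turned for 5 of the 38 genes (Tfeb, Atg12, Ctsl, Hexa and Atp6ap1), and 10 turned without at least 1 of the 8 libraries, none of them a gene that passed.

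**Figure D1:**
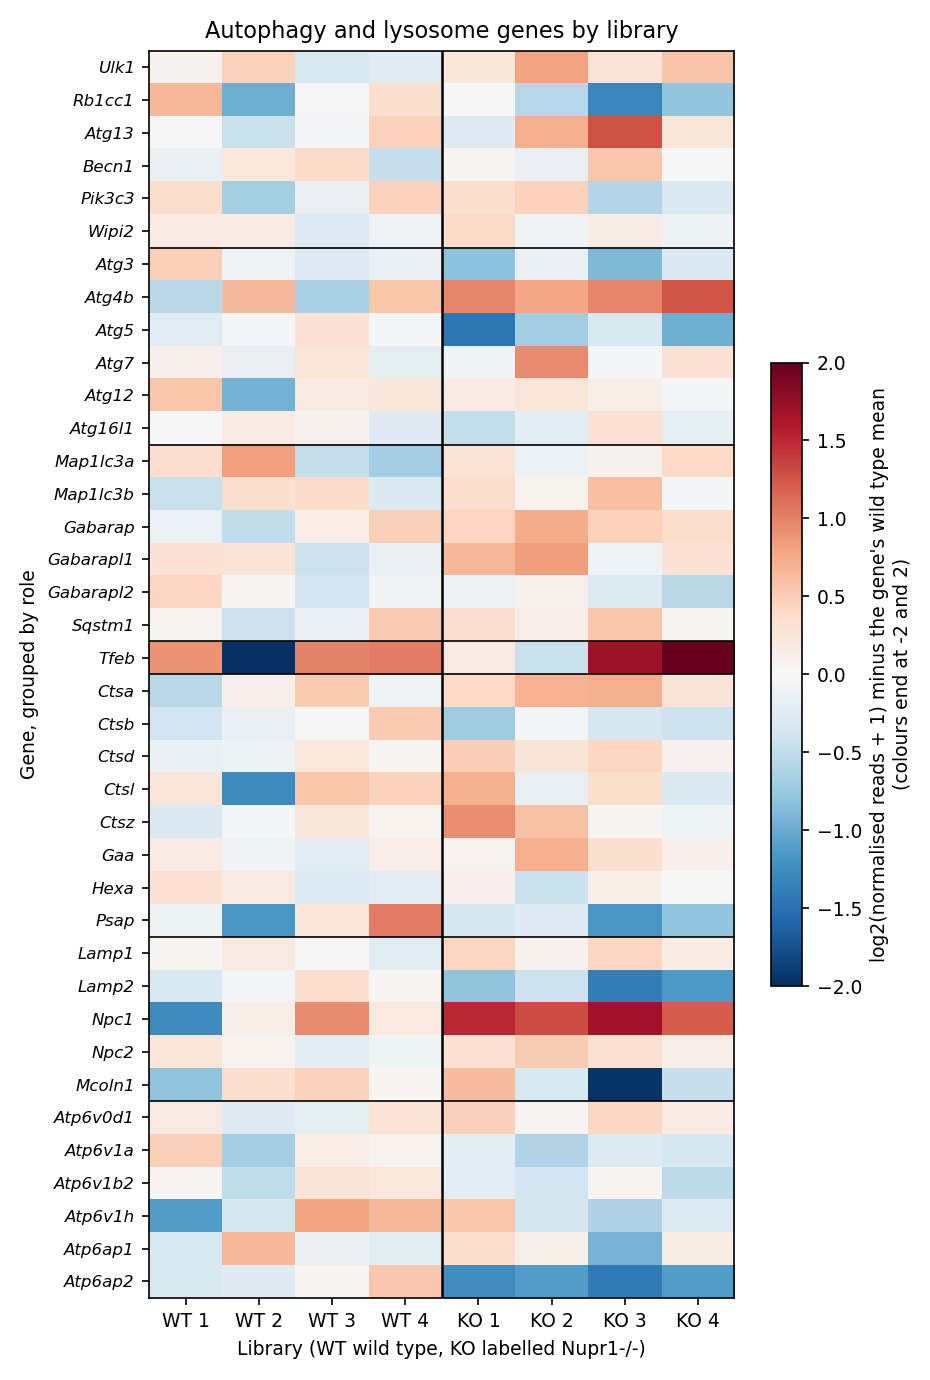
Heat map of the 38 genes (vertical axis, grouped by role) in the 8 libraries (horizontal axis, WT wild type and KO labelled Nupr1-/-); colour is log2(normalised reads + 1) minus the gene's wild type mean. Lamp2 and Atp6ap2 are below the wild type mean in all 4 libraries labelled Nupr1-/-, Npc1 and Atg4b are above it in all 4, and the dark cell of Tfeb is wild type library 2.

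Tfeb and its relatives switch on lysosomal and autophagy genes by binding a motif that holds the letters CACGTG. The promoter windows below, the 250 bases before the RefSeq start (GRCm38.p6), are shown because the genes that fell can be set beside Ctsd and Lamp1, abundant lysosomal genes that did not pass the test. Each is written 5′ to 3′ on the gene's strand, with CACGTG in capitals. The windows are chrX:38456461-38456710 (minus strand) for Lamp2, chrX:12587509-12587758 (plus) for Atp6ap2, chr7:142387828-142388077 (minus) for Ctsd and chr8:13158911-13159160 (plus) for Lamp1.
Lamp2: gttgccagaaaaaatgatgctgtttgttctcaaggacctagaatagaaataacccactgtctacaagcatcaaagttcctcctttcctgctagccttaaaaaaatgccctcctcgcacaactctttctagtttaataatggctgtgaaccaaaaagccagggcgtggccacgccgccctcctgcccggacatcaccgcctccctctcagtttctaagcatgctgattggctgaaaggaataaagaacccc
Atp6ap2: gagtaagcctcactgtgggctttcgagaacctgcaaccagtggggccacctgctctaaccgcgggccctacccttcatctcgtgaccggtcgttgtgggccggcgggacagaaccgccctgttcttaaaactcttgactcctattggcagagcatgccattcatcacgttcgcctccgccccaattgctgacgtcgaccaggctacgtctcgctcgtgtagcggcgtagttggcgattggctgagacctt
Ctsd: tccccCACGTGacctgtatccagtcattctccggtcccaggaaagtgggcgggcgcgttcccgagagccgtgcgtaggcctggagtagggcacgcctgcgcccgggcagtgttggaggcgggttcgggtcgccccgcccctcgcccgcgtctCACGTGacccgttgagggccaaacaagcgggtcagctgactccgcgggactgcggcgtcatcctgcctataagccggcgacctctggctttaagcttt
Lamp1: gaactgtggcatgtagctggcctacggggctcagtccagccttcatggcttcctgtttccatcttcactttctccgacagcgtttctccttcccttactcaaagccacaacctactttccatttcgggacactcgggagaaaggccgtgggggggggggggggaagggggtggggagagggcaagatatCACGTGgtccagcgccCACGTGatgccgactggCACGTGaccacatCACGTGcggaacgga
The letters occur 0 times in the windows of Lamp2 and Atp6ap2, 2 times in that of Ctsd and 4 times in that of Lamp1. These 4 windows do not stand for the rest: 18 of the genes with a window lacked the letters, and 16 of those did not pass.

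Across the 28 genes with an entry in the promoter table, 10 (35.7%) held CACGTG, which reads the same on both strands. They were Atg3, Atg5, Atg7, Atp6v1a, Ctsa, Ctsd, Ctsl, Gaa, Lamp1 and Mcoln1. The share was 6.86% of all 27025 genes in the table and 10.2% of the 8308 genes tested that had an entry. The longer form TCACGTGA, which contains the shorter one, stood in 5 of the 28 (17.9%: Atg3, Atp6v1a, Ctsa, Ctsd and Mcoln1). It stood in 0.907% of all genes and in 1.90% of the genes tested that had an entry. The 10 genes with CACGTG had a median log2 difference of 0.22, with 6 above 0 and 0 called, and the 18 without it had a median of 0.27, with 12 above 0 and the 2 called. With the GC and length trend removed these medians were -0.05 and -0.00163, with 5 and 9 genes above 0. Atg12, Map1lc3a, Npc1, Atp6v1b2, Becn1, Ctsb, Atp6v1h, Rb1cc1, Pik3c3 and Atg16l1 had no entry. A match describes these letters in these windows and is no measure of binding.

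Tfeb (chromosome 17, 47737030 to 47792419, plus strand, mm10) was among the least abundant of the genes. It measured 27.2, 1.0, 28.9 and 29.5 normalised reads across wild type libraries 1 to 4, against 16.0, 9.98, 47.7 and 63.9 in the 4 labelled Nupr1-/- in the same order. The groups overlapped, and library 2 was the lowest in each. At 0.88 ± 1.05 (SE), its log2 difference missed the threshold (limma adjusted p = 0.684). Without wild type library 2 it was -0.09 (adjusted p = 0.963), so its sign rests on that library. Among genes that act with it, in the list of lysosomal signalling proteins and related transcription factors, 0 of 14 tested passed.

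The autophagy start complexes showed no called difference in any of their 6 genes. Becn1, a scaffold of the lipid kinase complex that marks the forming membrane, was 433.8, 557.7, 628.1 and 350.7 normalised reads in wild type and 497.3, 433.9, 702.4 and 481.5 in libraries labelled Nupr1-/-. Wipi2, which reads the lipid made by that kinase, was 577.9, 581.4, 433.7 and 492.0 in wild type and 676.6, 495.0, 571.6 and 481.5 in libraries labelled Nupr1-/-. Both overlapped between the groups, with log2 differences of 0.11 ± 0.24 and 0.09 ± 0.22 (SE). The starting kinase Ulk1 had a log2 difference of 0.47, its partner Atg13 0.49, the scaffold Rb1cc1 -0.66 and the lipid kinase Pik3c3 -0.02, with limma adjusted p of 0.345, 0.469, 0.391 and 0.982. The median over the 6 genes was 0.10, with 4 above 0. Of all 21 genes of initiation and nucleation tested, with those from the wider list added, 0 passed and the median was 0.11. The exons of Becn1 share 3104 bases with other genes, the most of any of the 38, so its value is uncertain.

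The conjugation machinery, which links ATG8 proteins to the membrane lipid, held the widest spread of differences among the autophagy factors. Atg5, a part of the enzyme complex that completes the linkage (chromosome 10, 44268358 to 44364291, plus strand), was 203.3, 228.6, 288.1 and 231.3 normalised reads in wild type. In libraries labelled Nupr1-/- Atg5 was 86.0, 144.6, 191.7 and 119.4, all below the lowest wild type value. Its mean was 238 ± 35.8 in wild type and 135 ± 44.5 in libraries labelled Nupr1-/- (SD, n = 4). At -0.86 ± 0.33 (SE), its log2 difference did not pass (limma adjusted p = 0.161; exact permutation p = 0.0286, the smallest that 70 assignments can give). Atg4b, a protease that trims ATG8 proteins and removes them again (chromosome 1, 93751500 to 93790610, plus strand), went the other way. It was 58.5, 137.0, 54.8 and 127.7 in wild type and 170.6, 148.4, 171.4 and 209.3 in libraries labelled Nupr1-/-, all above the highest wild type value. Wild type libraries 1 and 3 were the low ones. At 0.99 ± 0.41 (SE), its log2 difference did not pass either (limma adjusted p = 0.182).

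Atg3, the enzyme that hands ATG8 proteins to the lipid, was 364.2, 248.3, 220.3 and 238.1 normalised reads in wild type and 148.7, 235.7, 142.2 and 213.9 in libraries labelled Nupr1-/-. Only labelled library 2 lay within the wild type range, and the log2 difference was -0.54 ± 0.31 (SE; limma adjusted p = 0.347). Atg12, the ubiquitin-like partner of Atg5, was 605.1, 213.8, 466.6 and 485.2 in wild type and 465.2, 491.3, 449.7 and 401.9 in libraries labelled Nupr1-/-. The low value of wild type library 2 stretched the wild type range around all 4 labelled libraries (log2 difference 0.12, adjusted p = 0.849), and without that library the log2 difference was -0.19 (0.650). Atg7, the activating enzyme of both conjugation branches, and Atg16l1, which places the complex on the membrane, had log2 differences of 0.28 and -0.14 (adjusted p of 0.718 and 0.847). Of all 11 conjugation genes tested, the wider list included, 0 passed.

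ATG8 proteins coat the autophagosome and dock cargo receptors, and 5 of the 6 genes in this group were above 0 (median log2 difference 0.26), with 0 called. With the GC and length trend removed the median was 0.03 and 4 lay above 0. Map1lc3b, which encodes the usual marker of autophagosomes, was 1063.9, 1824.9, 1876.4 and 1184.4 normalised reads in wild type and 1847.6, 1513.7, 2183.2 and 1413.0 in libraries labelled Nupr1-/-. The groups overlapped (log2 difference 0.25 ± 0.21 SE, limma adjusted p = 0.542). Gabarap (chromosome 11, 69991143 to 69994951, plus strand) was 380.9, 294.6, 451.7 and 579.0 in wild type and 560.0, 695.8, 569.0 and 535.2 in libraries labelled Nupr1-/-. Wild type library 4 overlapped the labelled libraries and the other wild type libraries lay below them. Its log2 difference was 0.50 ± 0.24 (SE; adjusted p = 0.253). Gabarapl1 was 911.4, 909.5, 553.4 and 684.0 in wild type and 1190.0, 1339.2, 703.3 and 917.6 in libraries labelled Nupr1-/-, with labelled library 3 inside the wild type range (log2 difference 0.43, adjusted p = 0.317). Gabarapl2, Map1lc3a and the cargo receptor Sqstm1 had log2 differences of -0.22, 0.16 and 0.26, with adjusted p of 0.709, 0.911 and 0.545.

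**Figure D2:**
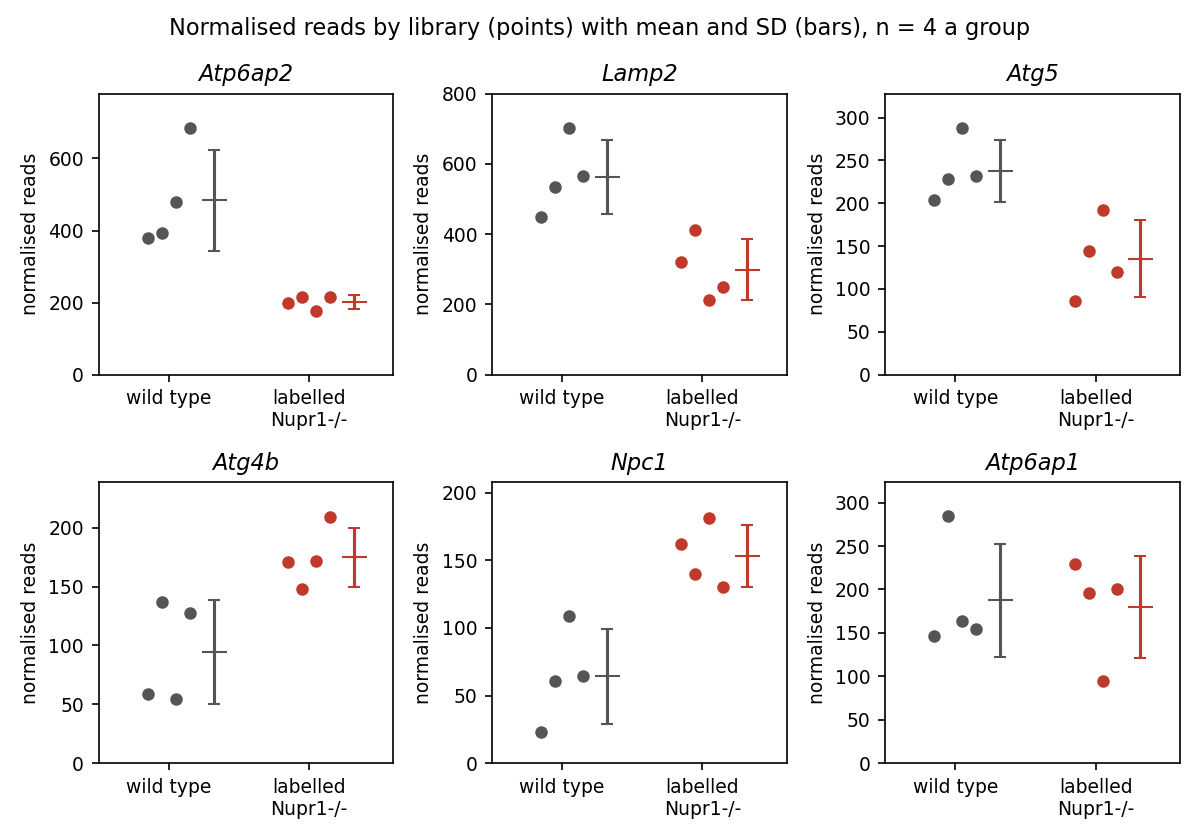
Normalised reads (vertical axes, from 0) in each library (points) with mean and SD beside them (n = 4 a group) for Atp6ap2, Lamp2, Atg5, Atg4b, Npc1 and Atp6ap1 in wild type and in libraries labelled Nupr1-/-. The groups do not overlap for the first 5 genes, and Atp6ap1, another accessory subunit of the pump, overlaps.

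Lamp2 and Npc1, both proteins of the lysosomal membrane, differed in opposite directions. Lamp2 (ENSMUSG00000016534.15, mm10 chromosome X, 38401357 to 38456454, minus strand) helps the lysosome fuse with autophagosomes and serves chaperone-mediated autophagy. It was 449.1, 535.1, 702.9 and 564.6 normalised reads across wild type libraries 1 to 4, against 319.4, 412.7, 212.9 and 250.9 in the 4 labelled Nupr1-/- in the same order. All 4 labelled libraries lay below all 4 wild type libraries. Lamp2 fell 1.91-fold, from a mean of 563 ± 105 to 299 ± 87.7 (SD, n = 4), a log2 difference of -0.94 ± 0.26 (SE; limma adjusted p = 0.0493; exact permutation p = 0.0286). The call was just inside the threshold. Of 8 fits with a single library left out, 7 lost it: without wild type library 1 (adjusted p = 0.0694), 3 (0.144) or 4 (0.110) and without labelled library 1 (0.107), 2 (0.0605), 3 (0.140) or 4 (0.120), and it held without wild type library 2 (0.0349). With the GC and length trend removed the log2 difference was -0.28 (adjusted p = 0.699). Lamp2 also missed in edgeR (0.0687), with the replicate block (0.0780) and with no filter (0.0565), and passed in DESeq2 (0.0150). In edgeR and DESeq2 2.79% and 8.76% of the genes with an adjusted p passed.

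Npc1, which exports cholesterol from the lysosome, was 23.0, 61.1, 108.7 and 64.2 normalised reads in wild type and 161.9, 139.7, 181.1 and 130.6 in libraries labelled Nupr1-/-. All labelled libraries lay above all wild type ones, and the means were 64.2 ± 35.1 and 153 ± 22.7 (SD, n = 4). At 1.42 ± 0.48 (SE), its log2 difference was the highest of the 38 and did not pass (limma adjusted p = 0.107; DESeq2 0.0758, edgeR 0.163). Exons of Npc1 share 601 bases with Rmc1 and an antisense gene on the other strand, and the library kit does not mark strand, so reads there cannot be assigned.

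Lamp1, the abundant partner of Lamp2 in the lysosomal membrane, was 920.5, 1003.1, 873.4 and 751.3 normalised reads in wild type and 1191.4, 940.2, 1189.2 and 976.9 in libraries labelled Nupr1-/-. Its groups overlapped, and its log2 difference was 0.28 ± 0.18 (SE; limma adjusted p = 0.430), opposite in sign to that of Lamp2. Npc2, which passes cholesterol to Npc1, was 848.8, 754.8, 614.2 and 679.5 in wild type and 883.7, 1017.5, 884.4 and 777.8 in libraries labelled Nupr1-/-. Labelled library 4 alone lay within the wild type range (log2 difference 0.30, adjusted p = 0.404). The calcium channel Mcoln1 had low values, 8.8 to 58.3 over the 8 libraries, and a log2 difference of -0.53 ± 0.77 (SE; adjusted p = 0.746).

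Of the proton pump, Atp6ap2 fell and the other 5 genes did not pass the test. Atp6ap2 (ENSMUSG00000031007.2, mm10 chromosome X, 12587801 to 12617049, plus strand), also known as the prorenin receptor, helps assemble the pump. It was 378.1, 393.2, 480.6 and 684.0 normalised reads across wild type libraries 1 to 4, against 198.3, 215.7, 176.7 and 215.7 in the 4 labelled Nupr1-/- in the same order. All labelled libraries lay below all wild type ones, with little spread among them. Atp6ap2 fell 2.33-fold, from a mean of 484 ± 141 to 202 ± 18.5 (SD, n = 4), a log2 difference of -1.22 ± 0.27 (SE; limma adjusted p = 0.0198; exact permutation p = 0.0286), the lowest of the 38. DESeq2 (4.08e-04) and edgeR (0.0227) also passed it, and with the GC and length trend removed it did not pass (-0.67, adjusted p = 0.3003). The call was lost without wild type library 3 (adjusted p = 0.0601) or 4 (0.0730) and without labelled library 1 (0.0606), 2 (0.0579) or 3 (0.0503), and passed without wild type library 1 (0.0400), wild type library 2 (0.00694) or labelled library 4 (0.0414).

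The companion accessory subunit Atp6ap1, also X-linked and given here after its values were seen, was 146.2, 284.8, 163.5 and 154.9 normalised reads in wild type and 94.5 to 229.0 in libraries labelled Nupr1-/-. Wild type library 2 was the highest of all 8, and the groups overlapped (log2 difference -0.08 ± 0.36 SE, limma adjusted p = 0.932). The log2 difference was 0.14 without wild type library 2 and 0.20 without labelled library 3. Atp6v0d1, which couples the membrane ring to the stalk, was 545.2, 403.0, 418.8 and 581.2 in wild type and 669.4, 498.8, 644.1 and 532.4 in libraries labelled Nupr1-/- (log2 difference 0.27, adjusted p = 0.522). Atp6v1b2, a subunit of the ATP-splitting head, was 527.8, 364.6, 621.2 and 597.9 in wild type and 441.9, 396.5, 532.8 and 361.1 in libraries labelled Nupr1-/- (log2 difference -0.27, adjusted p = 0.563). Both overlapped between the groups. The catalytic subunit Atp6v1a and the regulatory subunit Atp6v1h had log2 differences of -0.36 and -0.18 (adjusted p of 0.455 and 0.869). Over all 18 pump genes tested, the wider list included, 8 lay above 0 and 10 below, the median was -0.05 and Atp6ap2 was the 1 that passed.

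The 8 hydrolase genes held 0 calls, with 5 above 0 and a median log2 difference of 0.23. Ctsb, a cysteine protease, was 797.9, 933.2, 1039.9 and 1486.7 normalised reads in wild type and 634.4, 1005.0, 816.4 and 764.8 in libraries labelled Nupr1-/-. The high value was wild type library 4, and the groups overlapped (log2 difference -0.38 ± 0.22 SE, limma adjusted p = 0.346). Ctsd, the main aspartic protease of the lysosome, was 843.2, 858.3, 1060.9 and 932.7 in wild type and 1296.4, 1106.0, 1242.2 and 980.6 in libraries labelled Nupr1-/-. Labelled library 4 alone lay within the wild type range (log2 difference 0.32 ± 0.18 SE, adjusted p = 0.337). The carboxypeptidase Ctsa, the cysteine proteases Ctsl and Ctsz, the glycogen-splitting Gaa and the ganglioside-splitting Hexa had log2 differences of 0.52, 0.16, 0.36, 0.30 and -0.06, with adjusted p of 0.256, 0.847, 0.428, 0.444 and 0.910. Without wild type library 2 the log2 difference of Ctsl was -0.26 and that of Hexa 6.67e-04.

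Psap, the precursor of the saposins that help split sphingolipids, was added after its values were seen because its value turned on single libraries. It was 398.3, 189.2, 503.5 and 865.4 normalised reads in wild type and 333.9, 357.9, 190.0 and 247.2 in libraries labelled Nupr1-/-. Wild type library 2 was the lowest of all 8 libraries, and the other wild type values lay above all labelled ones. The log2 difference was -0.64 ± 0.37 (SE; limma adjusted p = 0.356), and without wild type library 2 Psap passed as lower (-1.02, adjusted p = 0.0381). Without wild type library 4, the highest, it was -0.30 (adjusted p = 0.705). In the fit without wild type library 2, 3 of the 38 genes passed, all lower: Psap, Lamp2 and Atp6ap2.

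**Figure D3:**
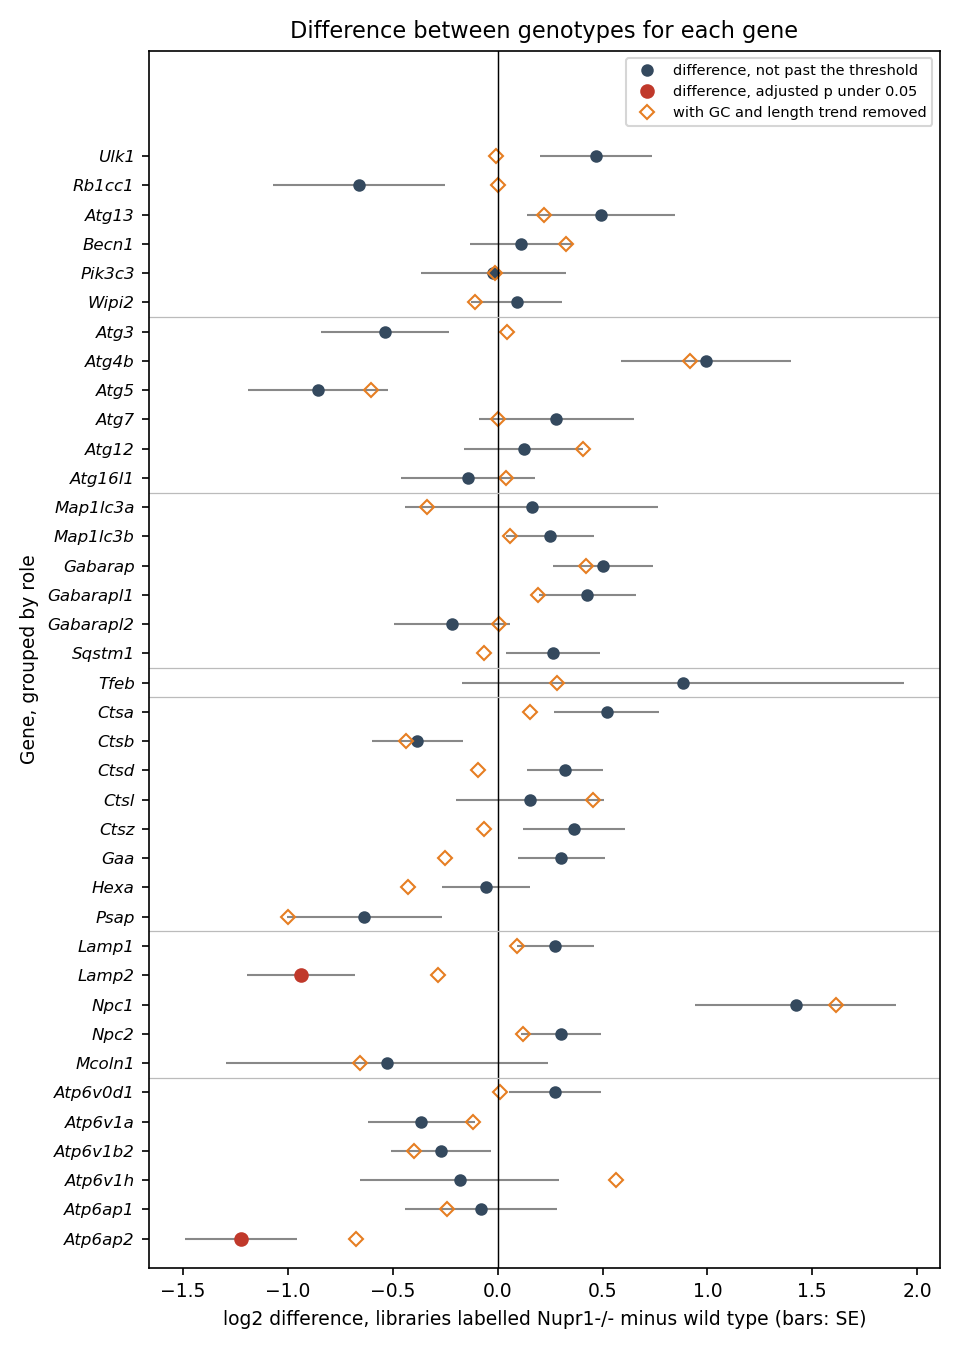
Log2 difference (horizontal axis, libraries labelled Nupr1-/- minus wild type, bars SE) for each of the 38 genes (vertical axis, grouped by role); red points passed the test and open diamonds are the differences after each library's trend with GC content and transcript length was removed. Atp6ap2 at -1.22 and Lamp2 at -0.94 are the red points, and their diamonds are at -0.67 and -0.28.

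Autophagy factors set against lysosomal genes differed little as groups. The 18 autophagy factors had a median log2 difference of 0.14, with 12 above 0 and 0 called. The 19 lysosomal genes had a median of -0.06, with 9 above 0 and 2 called, and leaving out single libraries moved that median between -0.11 and 0.09, across 0. By library, the median deviation of autophagy factors from their wild type mean, minus that of the lysosomal genes, was 0.22, 0.08, -0.29 and -0.15 on the log2 scale in wild type libraries 1 to 4. In libraries 1 to 4 labelled Nupr1-/- it was -0.14, 0.15, 0.09 and 0.07, within the wild type range. Autophagy factors took 0.214%, 0.210%, 0.205% and 0.203% of all normalised reads in wild type and 0.239%, 0.244%, 0.236% and 0.212% in libraries labelled Nupr1-/-. Lysosomal genes took 0.289%, 0.270%, 0.308% and 0.324% in wild type and 0.322%, 0.306%, 0.288% and 0.270% in libraries labelled Nupr1-/-. Labelled library 4 overlapped wild type in the first share, and the groups overlapped throughout in the second.

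Per kilobase of the longest annotated transcript, wild type levels were highest for Ctsd (434 ± 46.7 normalised reads per kilobase, SD, n = 4), Gabarapl1 (420.1 ± 97.1), Hexa (411 ± 80.7) and Lamp1 (398 ± 47.2). Their order is not separated, since each mean lies within 1 SD of its neighbour. Ctsz (362 ± 53.4) and Map1lc3b (359 ± 102) came next, also within 1 SD of Lamp1. The order also depends on the transcript length used. The lowest were Tfeb (9.24 ± 5.89), Npc1 (11.2 ± 6.09) and Mcoln1 (13.7 ± 4.74), also within their spread of each other. In libraries labelled Nupr1-/- Gabarapl1 (570.1 ± 156) and Ctsd (544 ± 66.7) were the highest, again within their spread. Exons of 14 of the 38 genes share 10 to 3104 bases with another gene, and those of Lamp2, Atp6ap2, Atg5, Atg4b and Gabarap share none.

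Differences followed the base composition of the transcripts. Across the 38 genes the Spearman correlation of log2 difference with GC content was 0.594, and across 10883 genes 0.450, a description in which all genes share the same 8 libraries. Within single libraries, the Spearman correlation of a gene's deviation with GC content was -0.303 to -0.138 in wild type and 0.151 to 0.302 in libraries labelled Nupr1-/-, so the groups did not overlap in it either. Of the 9 genes with a GC content of at most 45%, 2 lay above 0 and the median log2 difference was -0.54. Of the 29 above 45%, 20 lay above 0 and the median was 0.27. All genes tested had medians of -0.43 and 0.19 in these classes, and 5.81% and 0.777% of them were called lower. Lamp2 (38.7%) and Atp6ap2 (40.5%) are both in the low class. Genes of 38 to 41%, bounds set around these 2 genes, had a median of -0.59 and 7.51% were called lower. With each library's trend in GC content and length removed, 0 of the 38 genes passed, beside 0.266% of all genes. The medians of the hydrolases (0.23 to -0.17) and the start complexes (0.10 to -0.00447) changed sign with the trend removed, that of the conjugation genes went from -0.01 to 0.04, and 12 of the 38 genes changed sign. Npc1 (1.61), Atg4b (0.92) and Atg5 (-0.60) kept theirs. Psap also kept its sign and went further from 0, from -0.64 to -0.998. That was the lowest of the 38 with the trend removed, below Atp6ap2 (-0.67), and it did not pass.

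**Figure D4:**
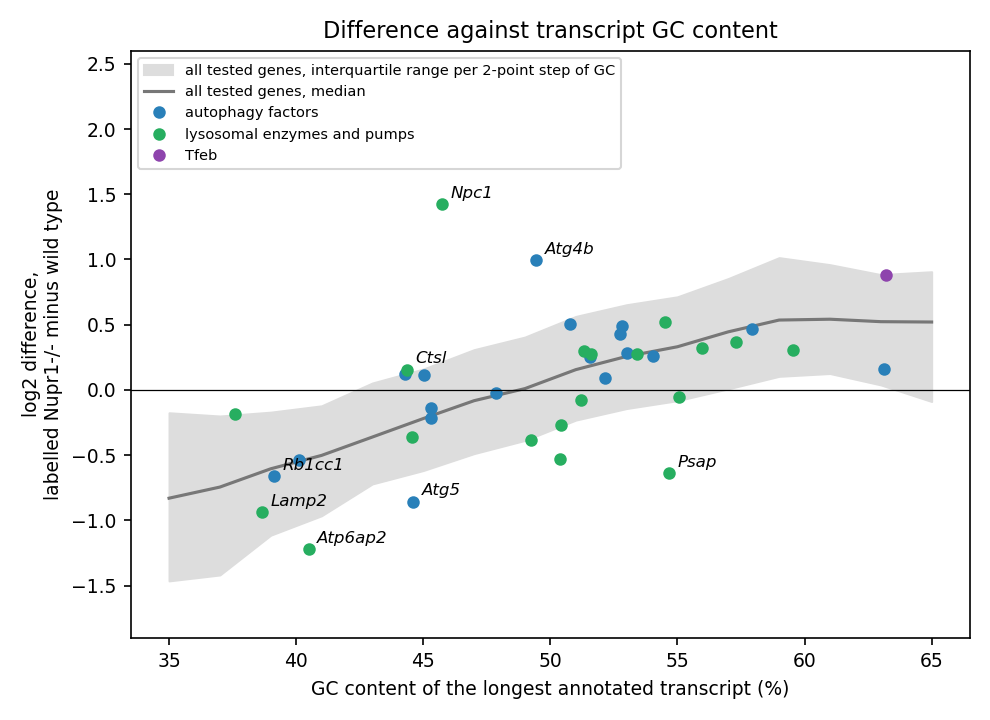
Log2 difference (vertical axis, libraries labelled Nupr1-/- minus wild type) against GC content of the longest annotated transcript (horizontal axis, percent) for autophagy factors, lysosomal genes and Tfeb (points), with the median (line) and interquartile range (grey band) of all tested genes. Lamp2 and Atp6ap2 lie at the low GC end, where the line is also below 0.

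Both genes that fell are X-linked, as is Atp6ap1. Of 354 X-linked genes tested 12 (3.39%) were called lower and the median log2 difference was -0.20, against 2.08% and 0.03 for 10527 autosomal genes. With the GC trend removed the X-linked median was -0.02. Xist, the RNA that coats the inactive X chromosome in females, was 0, 11.8, 0 and 0 normalised reads across wild type libraries 1 to 4, against 122.5, 107.2, 113.1 and 159.3 in the 4 labelled Nupr1-/- in the same order. The part of this in the values of Lamp2 and Atp6ap2 was not tested.

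Beyond the 38 genes, a wider list named 149 other genes of autophagy and the lysosome, of which 141 were tested, and 4 fell and 1 rose. That is 3.55%, near the 3.8% of all genes. Rab7, the small GTPase that brings autophagosomes to lysosomes, fell from a mean of 1038 ± 82.2 normalised reads to 592 ± 177 (SD, n = 4; log2 difference -0.85, limma adjusted p = 0.0368). Ctsc, which activates serine proteases of granules, fell from 662 ± 170 to 347 ± 66.9 (log2 difference -0.92, adjusted p = 0.0440), and the carboxypeptidase Prcp fell from 718 ± 90.6 to 355 ± 17.9 (-1.01, 0.0182). Cd164, a sialomucin of lysosomes and the cell surface, fell from 1006 ± 204 to 517 ± 81.0 (-0.95, 0.0236). Nagpa, which finishes the sugar tag that sends hydrolases to the lysosome, rose from 50.6 ± 16.1 to 161 ± 58.0 (1.64, 0.0490). The groups did not overlap for any of these 5 genes, and over the wider list they did not overlap for 8 of the 141 (5.67%), below the 11.7% of all genes.

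None of the 5 passed in all 8 fits with a single library left out: Prcp passed in 4 of 8, Cd164 in 3, Rab7 in 2, and Ctsc and Nagpa in 1 each, all 5 among them without wild type library 2. The highest adjusted p was 0.0602 for Prcp, 0.0831 for Cd164 and 0.153 for Ctsc, each without labelled library 1, 0.117 for Rab7 without labelled library 2 and 0.155 for Nagpa without labelled library 3. With the GC trend removed none passed, at log2 differences of -0.88 for Rab7, -0.43 for Ctsc, -0.82 for Prcp, -0.48 for Cd164 and 1.08 for Nagpa, each with the same sign. Exons of Rab7 share 204 bases with an antisense gene. By role, 12 of the 15 fusion and tethering genes lay above 0 (median log2 difference 0.57) while Rab7 among them fell, and 0 rose. Of all 10989 genes tested 5640 lay above 0 and the median was 0.03. With the GC and length trend removed, 10 of the 15 lay above 0 and their median was 0.40. Of all 48 hydrolase genes tested, 2 passed, Ctsc and Prcp, and of all 25 membrane genes 2 passed, Lamp2 and Cd164.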

How the data were processed

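Polyadenylated RNA of 8 HSC samples was made into Nextera XT libraries, which do not mark strand, per the labels' protocols. Per the submitters' processing notes the authors used bcl2fastq, HISAT2, featureCounts, Subread and DESeq2 with mm10; their versions are not given in the sources used here. As deposited by the authors, the table is presented as raw counts but holds a normalised signal: in every library 100% of values are whole multiples of 1 step within a tolerance of 0.001, so dividing by the step gave back whole read counts. For wild type library 3 the step is near 1 (0.997) and the recovery rests on its low values. The replicates are separate mice.

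The planned edgeR test for raw counts was therefore run as an alternative on recovered reads. The main test was limma 3.58.1 (R 4.3.3, eBayes with trend and robust) on log2 of the deposited signal + 1, for genes with at least 10 in at least 4 libraries, two-sided, Benjamini-Hochberg adjusted over 10989 genes. Folds are on that log2 scale, and for low genes they can lie above or below those of the count models. The log2 difference of Npc1 was 1.42, against 1.26 in both edgeR and DESeq2. That of Tfeb was 0.88, against 0.66 in edgeR and 0.67 in DESeq2. For Nagpa it was 1.64, against 1.67 in edgeR and 1.68 in DESeq2. The scripts were tested on simulated data. Alternatives were an added value of 5, no filter, edgeR 4.0.16 with TMM, DESeq2 1.42.0, the replicate block, removal of GC and length trends, each library left out, and, chosen after seeing the data, the trend removed without wild type library 2. Of 11854 named genes 11709 were matched to GENCODE M21 (mm10), 446 through an older symbol. There was 1 row without a name (at most 0.00109% of a library's reads), left out, and 17 names look like dates. Promoters are from RefSeq.

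The members and lists were chosen with earlier results of these data known. Values in all libraries are given for genes that passed, had an unadjusted p under 0.05 or did not overlap, for the 2 of highest mean in each of 6 role lists and for Tfeb; of the wider list, for genes that passed, means only.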

Additional observations from a re-analysis of the deposited data

Results flagged for a closer look

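Among 86 groups of 4 libraries checked for a single value far from the other 3 (the 38 genes and the 5 genes of the wider list that passed, in each genotype), 4 held one by Dixon's criterion of 0.829, and chance flags about 1 in 20. Tfeb in wild type library 2 was 0.985 normalised reads, the worth of a single read, with the other wild type libraries at 27.2 to 29.5. Atp6ap1 in wild type library 2 was 285, above the 146 to 164 of the others. Cd164 in wild type library 2 was 702, below the 1076 to 1124 of the others. Ctsc in library 1 labelled Nupr1-/- was 246, below the 374 to 387 of the others. Wild type library 2 was also the lowest of all 8 libraries for 10 of the 38 genes, more than any other library, and the highest for 2.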

How the results depend on the processing

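Of the 38 genes 0 passed as higher under any alternative. The 2 that passed as lower, of 418 genes in all, were again 2 with 5 added before the logarithm and with DESeq2 (775 genes in all), and 1 without the filter and with edgeR (Atp6ap2 in both). With the GC and length trend removed 0 passed of 29 in all, the median of the autophagy factors went from 0.14 to 0.0238, and 0 of the wider list passed in either direction. With the trend removed and wild type library 2 left out, 242 genes passed, 1 of the 38 as lower (Psap, adjusted p = 0.0134) and 2 of the wider list as lower. In the wider list 0 passed as higher without the filter and with edgeR, and 2 as lower with edgeR. Leaving out each library in turn gave 49 to 881 genes in all (881 without wild type library 2, 49 without labelled library 2), 0 to 3 of the 38 as lower, 0 to 2 of the wider list as higher and 0 to 5 as lower, with medians of 0.13 to 0.21 for autophagy factors and -0.11 to 0.09 for lysosomal genes. Fewer samples were fitted each time.

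The replicate numbers were not taken to pair the mice. Deviations of same-numbered libraries correlated at -0.0145, -0.0566, 0.0148 and -0.0155, and not every library correlated best with its own number. These correlations show no shared deviation and cannot tell whether same-numbered mice were handled together. With the replicate number as a block 277 genes passed, 1 of the 38 as lower (Atp6ap2; Lamp2 adjusted p = 0.0780), and 0 of the wider list as higher and 2 as lower. With the block and the trend removed together 24 passed in all, 0 of the 38 and 0 of the wider list in either direction, and the median of the autophagy factors was 0.0238.

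With 4 mice a group and 2296101 to 4769401 reads a library, genes such as Tfeb and Mcoln1 rest on few reads, and their differences carry standard errors of 1.05 and 0.77. Genotype cannot be told apart from other properties that separate the libraries in the same way, such as their GC trend and Xist level. The labels used here give no sex. Trp53 also separated the groups, at 450.5, 528.2, 594.2 and 617.5 normalised reads in wild type libraries 1 to 4. In the 4 labelled Nupr1-/- it was 118.1, 58.6, 102.5 and 118.5 in the same order (limma adjusted p = 0.00155). The part of Trp53 in the results above was not tested.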

Other observations

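The median coefficient of variation of the 38 genes between mice was 26.9% in wild type and 19.6% in libraries labelled Nupr1-/-, against 38.5% and 32.5% over all genes tested, though levels were not matched. It was lower in libraries labelled Nupr1-/- for 23 of the 38 genes, beside 61.1% of all genes. For Atp6ap2 the SD was 141 normalised reads in wild type and 18.5 in libraries labelled Nupr1-/-. Whether the spread differed between the groups was not tested.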
